A study of Mus musculus with 6 samples.

Results

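Kallikrein-related peptidases are secreted serine proteases encoded side by side on mouse chromosome 7. In the outer epidermis several of them cleave the proteins that hold corneocytes together, and they activate one another. Spink5 encodes LEKTI, a secreted inhibitor that restrains several of them. St14 encodes matriptase, a serine protease anchored in the membrane of epithelial cells, which is needed for the maturation of the epidermal barrier. The 10 genes described here are Klk5, Klk6, Klk7, Klk8, Klk10, Klk11, Klk13 and Klk14 with Spink5 and St14. They were chosen by name, with earlier results of these data known, and are 10 of the 23358 gene entries of the table. All 10 passed the filter on low counts, as did 16415 entries in all.

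RNA was sequenced from 6 spontaneous tumors of female mice, 1 tumor per mouse. All 6 mice carried NT3, an allele of the NF-κB inducing kinase NIK that lacks the TRAF3-binding domain and was placed in the ROSA26 locus behind a loxP-flanked stop. In the Osx-Cre;NT3 line the stop was removed by Cre under the Osterix promoter, a Tet-OFF driver kept silent by doxycycline chow until weaning, with C57Bl/6J and CD1 in its background. In the FSP1-Cre;NT3 line Cre was driven by the fibroblast-specific protein 1 (S100a4) promoter, brought in on an FVB/n background, and both drivers are also active outside the mesenchymal lineage. The Osx-Cre;NT3 tumors, numbered 13, 18 and 25, all grew on the trunk and had latencies of 150, 168 and 115 days. Tumors 27 and 36 were perineal and tumor 29 was a trunk tumor of FSP1-Cre;NT3 mice, with latencies of 101, 52 and 72 days. Line, strain background, site and latency overlap in these animals and cannot be told apart. Tissue without a tumor was not analysed here, so each level below is set against the other tumors.

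Total counts ranged from 51824408 to 163297772 per tumor, and 3 read pairs, counted as 6 in the table and taken as the limit that a count of 0 allows, correspond to 0.0367 to 0.116 CPM, the counts scaled to library size. The labels name the tissue only as a tumor of the trunk or perineum. The paper regards the skin development terms among genes raised in these tumors as likely contamination by skin left at excision. How much skin each sample held was not tested. Basal keratinocyte markers were abundant in every tumor, with Krt5, a keratin of the basal epidermal layer, between 2591 and 6087 CPM and its partner Krt14 between 1637 and 4104 CPM. Both were lowest in tumor 36. That tumor also stood apart in markers of other cell types: it had the highest level for 9 of 10 suprabasal keratinocyte markers, 5 of 7 simple epithelium markers, 5 of 6 smooth muscle and myoepithelium markers, 5 of 5 adipocyte markers and 7 of 8 hair follicle and hyperproliferative keratinocyte markers, against 24.8% of all genes tested. The main results that rest on tumor 36 are therefore also given without it. In bulk tissue, fewer cells of a type and less RNA per cell cannot be told apart.

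The 8 kallikrein genes lie on the forward strand of chromosome 7. From the start of Klk14 to the end of Klk5 the table spans 160.8 kb (mm10) and holds 10 entries, all of them kallikreins. St14 lies on the reverse strand of chromosome 9 (chr9:31088590-31131799). The bases just before the start sites of Klk8, Klk7 and Klk6 are shown because these neighbors carried most of the kallikrein RNA, and those of Klk13 because it stood farthest above the other tumors in tumor 36. Each run gives the 100 bases before the RefSeq start on GRCm38.p6, 5′ to 3′ on the forward strand. Capitals mark GGGCGG, the core of a GC box, or CCGCCC where the match lies on the reverse strand.
Klk8, chr7:43797477-43797576: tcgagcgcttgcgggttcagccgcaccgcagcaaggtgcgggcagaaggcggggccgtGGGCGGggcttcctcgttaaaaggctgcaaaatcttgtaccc
Klk7, chr7:43811194-43811293: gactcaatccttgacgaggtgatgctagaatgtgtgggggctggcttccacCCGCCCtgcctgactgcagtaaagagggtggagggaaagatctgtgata
Klk6, chr7:43824444-43824543: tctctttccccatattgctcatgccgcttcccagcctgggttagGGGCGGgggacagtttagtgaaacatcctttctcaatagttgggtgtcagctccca
Klk13, chr7:43712467-43712566: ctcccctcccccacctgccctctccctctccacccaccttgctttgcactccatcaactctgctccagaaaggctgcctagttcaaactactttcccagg

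In these windows the first base of the match lay at -42 for Klk8, -49 for Klk7 and -56 for Klk6, counted from the start site. Klk13 had no match to these letters. Over the 300 bases of each RefSeq promoter entry (250 before and 50 from the start), 10 entries matched the 8 kallikreins, since Klk6 and Klk11 have 2 start sites each. GGGCGG on either strand was present in 4 of the 10, and in 35.7% of 32851 mouse promoter entries. TATAAA, the TATA box core, was in 0 of the 10 and in 13.6% of all. TGANTCA, the AP-1 outline, was in 0 of the 10 and in 7.81% of all, and CCAAT was in 1 of the 10 and in 37.4% of all. Matches of different motifs could overlap.

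Spink5 and St14 were the abundant genes of the set. Compared per length, as RPKM, reads scaled to gene length and library size, over the 6 tumors, Spink5 stood at 69.7 ± 23.6 (SD, n = 6), rank 826 of all entries, and St14 at 33.4 ± 6.61 (SD, n = 6), rank 1851. Spink5 was above St14 in every tumor. The kallikreins followed at mean RPKM of 7.07 for Klk7, 4.89 for Klk8, 2.72 for Klk6, 1.24 for Klk13, 1.23 for Klk10, 0.903 for Klk5, 0.462 for Klk11 and 0.200 for Klk14. For 7 of these 8 the SD over tumors was larger than the mean. That spread is between tumors, and whether neighbors in this order differ within tumors was not tested. Without tumor 36 the mean RPKM was 3.75 for Klk8, 2.25 for Klk7, 0.587 for Klk6, 0.478 for Klk10, 0.370 for Klk5, 0.265 for Klk11, 0.225 for Klk13 and 0.112 for Klk14.

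**Figure D1:**
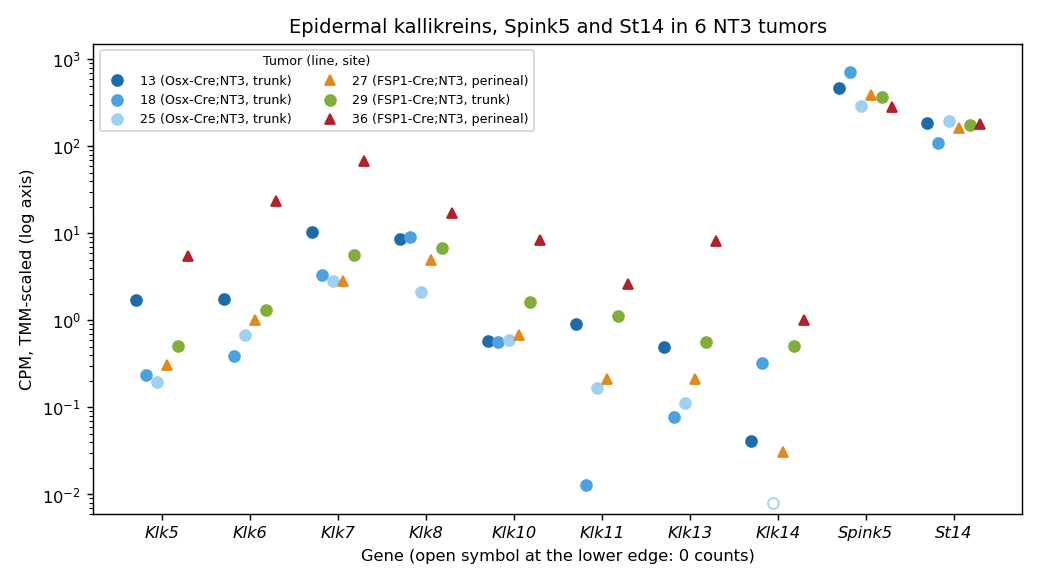
Level of each of the 10 genes in each tumor, in CPM with TMM scaling on a log axis; circles are trunk tumors, triangles perineal tumors, and the open circle is the count of 0 for Klk14 in tumor 25. All 8 kallikreins were highest in tumor 36, while Spink5 was lowest there and St14 lay within the range of the others.

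Spink5, a kallikrein inhibitor, was measured at 472, 706 and 295 CPM in the Osx-Cre;NT3 tumors 13, 18 and 25. In the FSP1-Cre;NT3 tumors 27, 29 and 36 it was at 391, 366 and 280 CPM. The highest level was in tumor 18 and the lowest in tumor 36, a range of 2.52-fold, and the lines overlapped. St14, the membrane-anchored protease, was at 183, 108 and 194 CPM in Osx-Cre;NT3 tumors (13, 18, 25) and 162, 174 and 180 CPM in FSP1-Cre;NT3 tumors (27, 29, 36). It varied least of the 10, by 1.79-fold between tumor 18 and tumor 25. The SD of its log2 level over the tumors was 0.31, larger than that of 33.9% of all genes tested, whereas for Spink5 it was 0.49 and larger than that of 63.1%.

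Klk7, the chymotryptic enzyme that cleaves corneodesmosomes, was at 10.4, 3.36 and 2.82 CPM in tumors 13, 18 and 25. In tumors 27, 29 and 36 it was at 2.85, 5.67 and 67.3 CPM. Tumor 36 was thus 6.50-fold above the next tumor, number 13, and the remaining 5 tumors of both lines overlapped. Klk5, a tryptic enzyme that activates other kallikreins, was at 1.70, 0.234 and 0.197 CPM in Osx-Cre;NT3 tumors (13, 18, 25) and 0.307, 0.513 and 5.47 CPM in FSP1-Cre;NT3 tumors (27, 29, 36). It had the same leading pair, tumor 36 and then tumor 13, 3.22-fold apart. Klk14, another tryptic kallikrein, was the scarcest. It had 2, 50 and 0 counts in the Osx-Cre;NT3 tumors and 2, 40 and 64 counts in the FSP1-Cre;NT3 tumors, in the order of their numbers. The count of 0 in tumor 25 allows up to 0.0854 CPM, and the level in tumor 36 was 1.00 CPM against 0.513 in tumor 29.

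Klk8, also known as neuropsin, was, with Klk7, 1 of the 2 kallikreins with at least 100 counts in every tumor. It was at 8.61, 8.99 and 2.14 CPM in Osx-Cre;NT3 tumors (13, 18, 25) and 4.91, 6.77 and 17.4 CPM in FSP1-Cre;NT3 tumors (27, 29, 36). Tumor 36 was 1.93-fold above tumor 18. Klk6, a tryptic kallikrein known from skin and brain, was at 1.78, 0.390 and 0.676 CPM in Osx-Cre;NT3 tumors (13, 18, 25) and 1.01, 1.33 and 23.4 CPM in FSP1-Cre;NT3 tumors (27, 29, 36). That is 13.2-fold above the next tumor, while the other 5 lay within 4.57-fold of each other.

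Klk13 had the widest separation, with 0.497, 0.0779 and 0.113 CPM in Osx-Cre;NT3 tumors (13, 18, 25) and 0.215, 0.564 and 8.10 CPM in FSP1-Cre;NT3 tumors (27, 29, 36). Tumor 36 was 14.3-fold above tumor 29. Klk10 was nearly level in the Osx-Cre;NT3 tumors, at 0.580, 0.572 and 0.591 CPM, and stood at 0.675, 1.62 and 8.35 CPM in FSP1-Cre;NT3 tumors (27, 29, 36). Klk10 was the only member whose lines did not overlap, a pattern held in the same direction by 9.03% and in either direction by 17% of all genes tested. Its levels in tumors 13, 18 and 25 rest on 28, 88 and 42 counts, and that in tumor 27 on 44. At such counts the order of tumors 25 and 27 is uncertain, and so is the near equality of the Osx-Cre;NT3 tumors. Klk11 was at 0.911, 0.0130 and 0.169 CPM in Osx-Cre;NT3 tumors (13, 18, 25) and 0.215, 1.13 and 2.59 CPM in FSP1-Cre;NT3 tumors (27, 29, 36). Its level in tumor 18 rests on 2 counts, or 1 read pair.

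All 8 kallikreins were highest in tumor 36, a rank held there by 24.8% of all genes tested. For 6 of the 8 the level was more than 2-fold above the next tumor (7.96% of all genes tested), and for 7 it was more than 4-fold above the median of the other 5 tumors (8.15%). Tumor 18 was lowest for 4 of the 8 (25.2% of all genes tested) and tumor 25 for the other 4 (18.7%). The second place was taken by tumor 29 for Klk10, Klk11, Klk13 and Klk14, by tumor 13 for Klk5, Klk6 and Klk7, and by tumor 18 for Klk8. Tumor 27, the other perineal tumor, was never first or second.

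The summed RNA of the kallikreins was set against that of Spink5 per tumor. The sum was not limited to the kallikreins that LEKTI inhibits. The 8 kallikreins summed to 12.5, 7.54, 3.69, 6.36 and 10.1 RPKM in tumors 13, 18, 25, 27 and 29, and to 72.1 RPKM in tumor 36. Spink5 exceeded that sum 5.95-fold to 14.9-fold in the first 5 tumors, whereas in tumor 36 Spink5 was 0.659 of the sum. In percent, the kallikrein sum was 6.71% to 16.8% of Spink5 in the 5 tumors and 151.8% in tumor 36. RNA ratios do not give the ratio of the active proteins.

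The composition of the sum differed as well. Klk8 made up the largest share in the other 5 tumors, from 35.7% in tumor 25, where Klk7 was close at 35.6%, to 68.3% in tumor 18. In tumor 36 Klk7 led with 43.2%, followed by Klk6 with 18.6% and Klk8 with 14.7%. Klk6 held 2.78% to 10.6% of the sum in the other tumors.

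**Figure D2:**
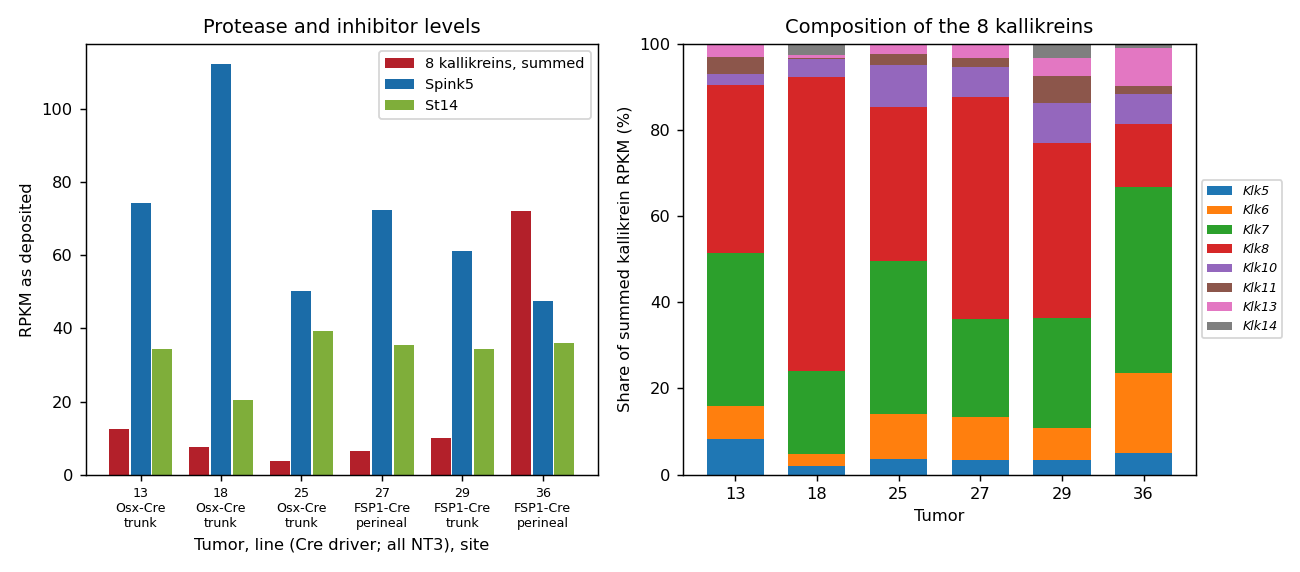
Left, deposited RPKM of the 8 kallikreins summed, of Spink5 and of St14 in each tumor; right, the share of each kallikrein in that sum, in percent. The sum exceeded Spink5 only in tumor 36 among these 6 tumors, at 72.1 against 47.5 RPKM, and Klk7 was the largest share there.

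Set against basal keratins, the kallikrein sum was 0.104% to 0.317% of Krt5 plus Krt14 in the 5 tumors and 4.12% in tumor 36. Suprabasal keratins moved with the kallikreins in part. Krt1, a keratin of the spinous layer, was at 127, 2.98 and 5.86 CPM in Osx-Cre;NT3 tumors (13, 18, 25) and 22.3, 131 and 352 CPM in FSP1-Cre;NT3 tumors (27, 29, 36). Its partner Krt10 was lowest in tumor 18, at 2.55 CPM, and highest in tumor 36, at 278 CPM. Tumors 36, 29 and 13 were thus the highest 3 for both keratins and for 5 of the kallikreins, Klk5, Klk6, Klk7, Klk11 and Klk13. Relative to Krt1 plus Krt10, the kallikrein sum was 32.3% in tumor 36, where these keratins summed to 223 RPKM. It was 11.8% in tumor 13, 10.6% in tumor 29 and 36.4% in tumor 27, at 105.9, 95.7 and 17.5 RPKM of these keratins. The values of 409.2% in tumor 18 and 93.3% in tumor 25 rest on only 1.84 and 3.95 RPKM of them. The summed level of the 10 suprabasal markers was 175 to 600.5 CPM in the other tumors and 1058 CPM in tumor 36, and its part in the kallikrein levels was not tested. St14 and Spink5 had other orders. St14 was 0.745% to 1.19% of Krt5 plus Krt14 in the 5 tumors and 2.06% in tumor 36, and Spink5 was 2.71% in tumor 36 against 1.42% to 4.10%.

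The rest of the kallikrein cluster showed where on the chromosome the high levels lay. Downstream of Klk5 the table continues with Klk4, Klk15, 14 Klk1b entries and Klk1, the tissue kallikrein, 539.2 kb from the start of Klk14 to the end of Klk1. Of the 11 kallikreins tested, 10 were highest in tumor 36, a rank held there by 24.8% of all genes tested. The exception was Klk4, the enamel protease, which was highest in tumor 18 at 0.585 CPM. Klk1 was at 0.0845 to 1.68 CPM in the other 5 tumors and at 55.2 CPM in tumor 36. Klk9 was at 0.0909 to 1.41 CPM in the others and at 5.85 CPM in tumor 36. Klk15 had counts of 0 to 2 in the others and of 64 in tumor 36. The Klk1b genes, near-identical copies of one another and of Klk1 in part, were nearly silent, with no count above 50 in any tumor, so their counts are uncertain. Within 100 kb on either side of the cluster, 2 of 9 other genes tested were highest in tumor 36, near that share. In 1 of these 9 the level in tumor 36 was more than 2-fold above the next tumor. The same held for 8 of the 11 kallikreins and for 7.96% of all genes tested. A long antisense transcript in GENCODE M21, 2310002F09Rik, overlaps Klk14, Klk13, Klk11, Klk10 and Klk8, and how strand was counted is not given in the sources used here.

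**Figure D3:**
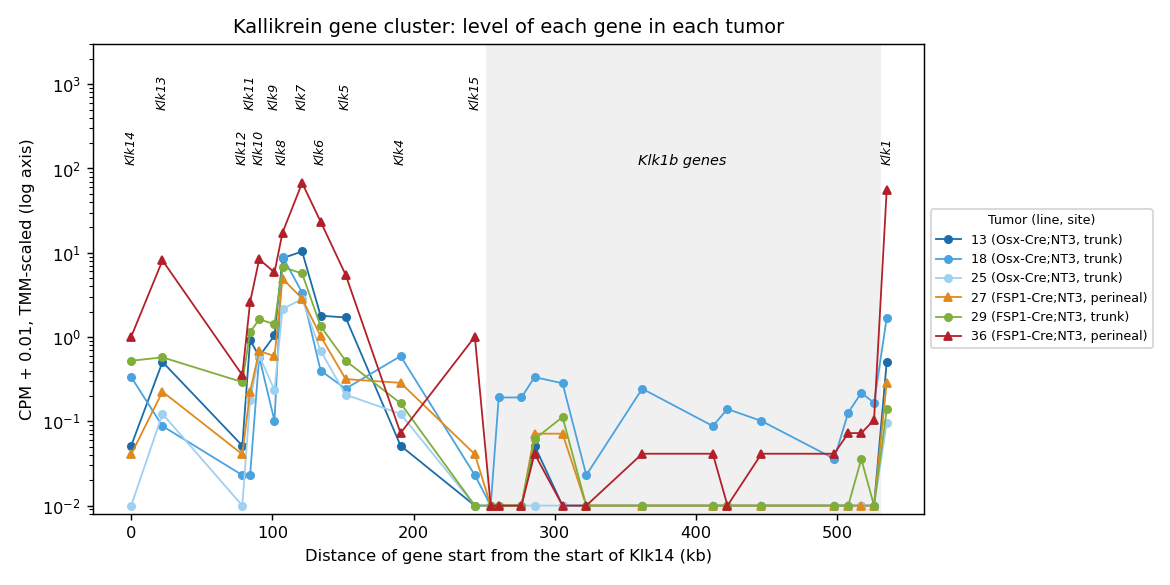
Level of the 27 kallikrein entries along the cluster, as CPM plus 0.01 on a log axis, by distance of each gene start from the start of Klk14 in kb; lines join the genes of 1 tumor. In tumor 36 the levels peaked at Klk7 with 67.3 CPM and again at Klk1 with 55.2 CPM, with Klk4 and the Klk1b genes near 0 between them.

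The first comparison asked whether the genes differed between the lines. With edgeR's quasi-likelihood test, 0 of the 10 members and 0 of 16415 genes passed an adjusted p of 0.05 between FSP1-Cre;NT3 and Osx-Cre;NT3 (0% called). At an unadjusted p under 0.05 there were 2 of the 10 members, both higher in FSP1-Cre;NT3, against 7.31% of all genes tested in that direction and 3.47% in the other. These were Klk10, at 3.55 ± 4.18 CPM in FSP1-Cre;NT3 and 0.581 ± 0.00994 in Osx-Cre;NT3 (SD, n = 3 each), with a log2 fold change of 2.61 ± 0.93 (SE, adjusted p = 0.458 by edgeR), and Klk13, at 2.96 ± 4.45 and 0.229 ± 0.232 CPM, with 3.74 ± 1.52 (adjusted p = 0.458 by edgeR). The fold change was above 0 for 9 of the 10 (51.1% of all genes tested), with a median of 1.92 over the members and 0.01 over all genes tested.

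For the kallikreins with the most RNA the intervals were wide. Klk7 had a log2 fold change of 2.20 with a 95% interval of -0.69 to 5.09, and Klk8 one of 0.56 with an interval of -1.06 to 2.18. The intervals of St14 and Spink5 were the narrowest. St14 stood at 172 ± 9.09 CPM in FSP1-Cre;NT3 and 162 ± 46.8 in Osx-Cre;NT3, with a log2 fold change of 0.08 and an interval of -0.52 to 0.69. Spink5 stood at 346 ± 58.2 and 491 ± 206.6 CPM, with -0.51 and an interval of -1.32 to 0.31. DESeq2 called 420 genes (2.72%) and none of the members, and it gave no adjusted p for Klk5 and Klk6. With site as a covariate the line values of edgeR were smaller for several members: 0.05 for Klk7, 0.51 for Klk6, 1.35 for Klk13 and 1.47 for Klk10. Klk11 and Klk14 moved less, from 1.89 to 1.68 and from 1.953 to 1.949. Both perineal tumors were FSP1-Cre;NT3, so these values compare tumor 29 alone with the Osx-Cre;NT3 tumors.

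Without tumor 36, 0 of the 10 members reached an unadjusted p of 0.05 between the lines. Klk5, Klk7 and Klk8 were then lower in FSP1-Cre;NT3 on the log2 scale, at -0.76, -0.37 and -0.17. The other 5 kallikreins kept positive values, at 0.98 for Klk10 with an interval of -0.34 to 2.30, 0.82 for Klk13, 0.94 for Klk11, 1.04 for Klk14 and 0.32 for Klk6. The median over the members was 0.19.

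The second comparison set the 2 perineal tumors against the 4 trunk tumors. Again 0 of the 10 members and 0 of 16415 genes passed the adjusted threshold with edgeR (0% called). At an unadjusted p under 0.05 there were 4 of the 10 members, all higher in perineal tumors, against 8.61% of all genes tested in that direction and 1.63% in the other. Klk6 had the smallest p, with 1.01 and 23.4 CPM in the perineal tumors 27 and 36 against 1.05 ± 0.630 CPM (SD, n = 4) on the trunk, and a log2 fold change of 3.55 ± 1.06 (SE, adjusted p = 0.338 by edgeR). Klk13, Klk7 and Klk10 followed with log2 fold changes of 3.75, 2.66 and 2.42 and adjusted p-values of 0.392, 0.430 and 0.428 by edgeR. No member had sites that did not overlap, a pattern shown by 19.6% of all genes tested. The fold change was above 0 for 9 of the 10 (48.2% of all genes tested), with a median of 1.75 over the members. DESeq2 called 561 genes (3.57%), among them Klk6 with an adjusted p of 0.0212.

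These values rested on tumor 36. With tumor 27 as the only perineal tumor, 0 of the 10 members had a positive log2 fold change, Klk6 was at -0.04 and the median was -0.48. With tumor 36 as the only perineal tumor, edgeR called 415 genes (2.47% of those tested), Klk6 and Klk7 among them, at log2 fold changes of 4.48 and 3.58. That fit takes the spread from the trunk tumors alone and assumes that the lone tumor varies as they do, so it compares that tumor with the trunk tumors and not the sites. St14 differed by 0.05 between sites with an interval of -0.61 to 0.71, and Spink5 by -0.45 with an interval of -1.38 to 0.48.

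**Figure D4:**
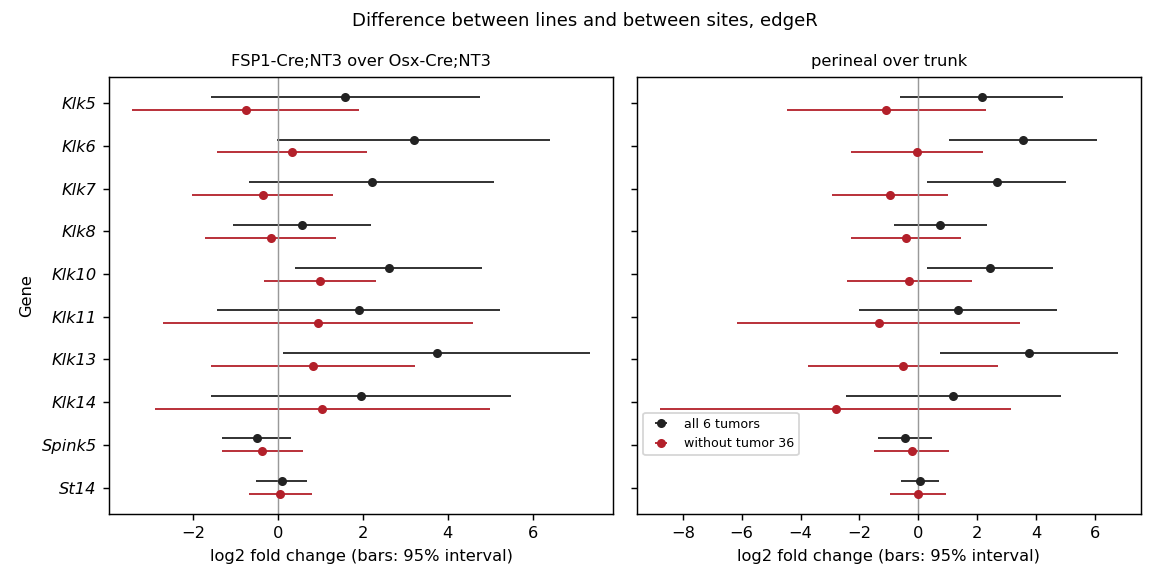
Log2 fold changes of the 10 genes by edgeR, FSP1-Cre;NT3 over Osx-Cre;NT3 (left) and perineal over trunk (right), with 95% intervals as bars; black points use all 6 tumors and red points leave out tumor 36. With tumor 36 left out every interval includes 0, and the kallikrein estimates run from -0.76 to 1.04 between lines and from -2.81 to -0.04 between sites.

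Other epidermal protease inhibitors were looked at beside Spink5. Of 9 tested, 0 passed the adjusted threshold of edgeR in either comparison. At an unadjusted p under 0.05, 1 was lower in FSP1-Cre;NT3 (3.47% of all genes tested) and 2 were higher in perineal tumors (8.61%), DESeq2 called 1 in each comparison, and the median log2 fold change was -0.04 between lines. The first is Serpina12, an inhibitor of Klk7 known as vaspin, at 8.99, 12.6 and 7.77 CPM in Osx-Cre;NT3 tumors (13, 18, 25) and 3.81, 3.51 and 4.16 CPM in FSP1-Cre;NT3 tumors (27, 29, 36). Its lines did not overlap, as for 17% of all genes tested, and its log2 fold change was -1.36 (adjusted p = 0.432 by edgeR). Slpi, the secretory leukocyte protease inhibitor that also blocks Klk7, and Cst6, the cystatin of the cornified layer, were the 2 between sites. Slpi was at 52.9 CPM in tumor 36 and 0.282 to 6.85 in the others, and Cst6 at 87.9 CPM and 4.97 to 14.5. Serpinb5, or maspin, was at 29.1 to 89.3 CPM.

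Spint1 and Spint2, the membrane Kunitz inhibitors of matriptase, were abundant in every tumor. Spint1 was at 125, 109 and 137 CPM in Osx-Cre;NT3 tumors (13, 18, 25) and 105, 99.6 and 144 CPM in FSP1-Cre;NT3 tumors (27, 29, 36). Spint2 was at 448 to 704 CPM. St14 was 6.32% of their summed RPKM in tumor 18 and 11.7% in tumor 36, with the others between, so the RNA of the protease stayed below that of its inhibitors.

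**Figure D5:**
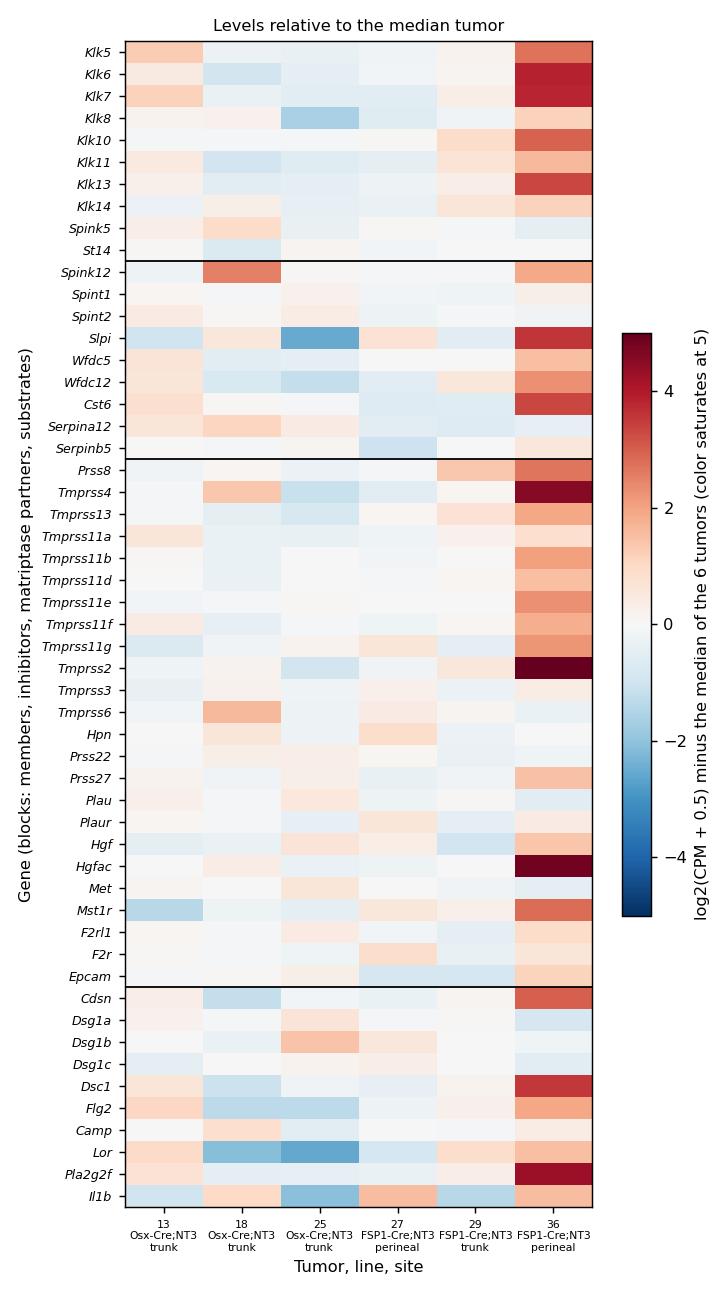
Levels of 53 genes tested (members, inhibitors, matriptase partners and membrane proteases, kallikrein substrates) in each tumor, as log2(CPM + 0.5) minus the median of the 6 tumors, with color saturating at 5. The column of tumor 36 is high for the kallikreins, Tmprss2, Tmprss4, Hgfac and Pla2g2f, while the rows of St14, Spint1 and Spint2 are nearly even.

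Partners of matriptase and other membrane-anchored serine proteases numbered 24 tested. By edgeR 0 passed the adjusted threshold, 5 were higher in FSP1-Cre;NT3 at an unadjusted p under 0.05 (7.31% of all genes tested), and between sites 9 were higher (8.61%) and 1 lower (1.63%) in perineal tumors. DESeq2 called 1 between lines and 4 between sites. Prss8, or prostasin, the membrane protease that acts with matriptase, was at 2.03, 2.55 and 1.83 CPM in Osx-Cre;NT3 tumors (13, 18, 25) and 2.21, 6.77 and 17.7 CPM in FSP1-Cre;NT3 tumors (27, 29, 36). St14 exceeded Prss8 by 11.9-fold to 49.1-fold in RPKM in the other tumors and by 4.70-fold in tumor 36. Tmprss13, another membrane-anchored protease, was at 1.66 to 5.64 CPM in the others and at 13.7 CPM in tumor 36.

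In that list Tmprss2 was at 2.20 to 7.11 CPM in the others and 363 CPM in tumor 36, and Tmprss4 at 1.75 to 12.0 and 114 CPM. Both are transmembrane serine proteases of epithelia. Hgfac, the protease that activates hepatocyte growth factor, was at 0.338 to 0.883 CPM and 29.7 CPM, and Mst1r, the receptor of macrophage stimulating protein, at 0.828 to 4.67 and 24.1 CPM. Tmprss11e, Tmprss11g and Tmprss11b (listed under an older symbol) stayed below 4 CPM in every tumor and were highest in tumor 36, at 2.91, 3.53 and 2.53 CPM. Epcam, a matriptase substrate, was at 174 to 381 CPM in the others and 677 CPM in tumor 36. Plau, the urokinase that matriptase activates, was lowest in tumor 36 at 52.0 CPM and at 63.8 to 109 in the others, and Met, the hepatocyte growth factor receptor, was also lowest there at 98.2 CPM. F2r and Plaur, the thrombin and urokinase receptors, were among those higher in perineal tumors, at 103 and 18.7 CPM in tumor 27, where both were highest.

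Among 11 kallikrein substrates of the corneodesmosome and cornified layer tested, 0 passed the adjusted threshold of edgeR and 4 were higher in perineal tumors at an unadjusted p under 0.05 (8.61% of all genes tested), while 0 reached it between lines. DESeq2 called 0 between lines and 1 between sites. Cdsn, or corneodesmosin, was at 1.23 to 4.60 CPM in the others and 31.5 CPM in tumor 36. Dsc1, desmocollin 1, was at 0.831 to 3.81 and 32.5 CPM, and Pla2g2f, a secreted phospholipase of the suprabasal epidermis, at 0.922 to 2.77 and 38.2 CPM. Il1b, a cytokine, was highest in tumors 36 and 27 at 55.0 and 54.2 CPM. Dsg1a, a desmoglein 1 gene, went the other way, with its lowest level of 167 CPM in tumor 36 and 284 to 480 CPM in the others. Its log2 fold change between sites was -0.64, and those of the related Dsg1b and Dsg1c were -0.23 and 0.03.

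Of 14 other epidermal proteases tested, 0 passed the adjusted threshold of edgeR (DESeq2 called 4 between lines and 2 between sites), and at an unadjusted p under 0.05, the FSP1-Cre;NT3 level was above the other in 4 (7.31% of all genes tested) and below it in 2 (3.47%), and the perineal level was above the other in 2 (8.61%) and below it in 1 (1.63%). Casp14, the caspase of cornification, was at 0.760 to 3.82 CPM in the others and 38.1 CPM in tumor 36. The mast cell proteases Cma1 and Mcpt4 were at 51.6 to 69.6 and 66.8 to 91.6 CPM in FSP1-Cre;NT3 and at 0.986 to 12.5 and 1.86 to 20.4 CPM in Osx-Cre;NT3, so their lines did not overlap, as for 9.03% of all genes tested in that direction. Tpsab1, a mast cell tryptase, stayed below 3 CPM. The lysosomal cathepsins Ctsd and Ctsh were lower in FSP1-Cre;NT3, at 903 to 1447 and 196 to 230 CPM against 1675 to 3048 and 268 to 416 CPM. Their partner in the lysosome Ctsl was at 140 to 376 CPM. Mep1a, the meprin α protease, was at 0.153 to 0.689 CPM in the others and 28.2 CPM in tumor 36.

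Without tumor 36, an unadjusted p under 0.05 between lines was reached by 2 of 9 inhibitors, 1 of 24 matriptase partners and membrane proteases, 0 of 11 substrates and 4 of 14 other proteases, against 6.25% of all genes tested in either direction. Between sites it was reached by 1, 1, 0 and 0 genes of these lists, in the same order, against 1.98%.

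The markers of other cell types gave the following levels. Krt8 and Krt19, keratins of simple epithelia, were at 243 to 429 and 11.8 to 43.4 CPM in the other tumors and at 2249 and 1091 CPM in tumor 36. Of the 7 simple epithelium markers, 5 were highest in tumor 36, 1 in tumor 18 and 1 in tumor 27. Krt18, also on that list, went the other way, with log2 fold changes of -0.73 between lines and -0.34 between sites. Acta2, smooth muscle actin, was at 59.2 to 86.3 and 498 CPM. Csn2, the milk protein β-casein, was lowest in tumor 36 at 56.6 CPM and at 82.3 to 347 in the others, while Lalba had no level above 0.0845 CPM. The summed levels in tumor 36 against the range of the others were 4969 against 628 to 1206 CPM for 7 simple epithelium markers, 2319 against 240.5 to 547 CPM for 6 smooth muscle and myoepithelium markers, and 1843 against 1956 to 3607 CPM for 8 hair follicle and hyperproliferative markers. That last sum was carried by Krt17, a keratin of the follicle, at 1075 CPM in tumor 36 and 1881 to 3555 CPM in the others, whereas the other 7 markers of the list were highest in tumor 36 and each more than 2-fold above the next tumor (7.96% of all genes tested). For 7 sebaceous markers they were 376 against 154 to 268 CPM, for 5 adipocyte markers 128 against 2.53 to 36.2 CPM, and for 7 leukocyte markers 709 against 183 to 361 CPM. Basal keratinocyte markers summed to 5687 CPM in tumor 36 against 9956 to 14247 CPM, and the 5 mammary markers to 57.3 against 82.5 to 348 CPM. Fibroblast markers summed to 12718 CPM in tumor 36, 11545 and 15001 CPM in tumors 27 and 29, and 5194 to 6742 CPM in Osx-Cre;NT3, and the 8 salivary markers to 159 against 335 to 587 CPM, with Lpo, the lactoperoxidase, the most abundant and 2 of the 8 at 0 in every tumor. The part of these cell types in the levels of the kallikreins was not tested.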

How the data were processed

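Total RNA of 6 tumors was sequenced. Per the study's methods, the authors used HISAT2 (2.1.0) to align trimmed reads to mm10 and featureCounts to count them. The submitters' processing notes instead name TopHat2 (2.0.6) and HTSeq, and which made the table was not settled. The gene annotation and the strand setting are not given in the sources used here. Only gross overlying tissue was removed at excision. Tumors were stored in RNAlater or frozen, and which tumor was stored in which way is not stated. The authors deposited raw counts and RPKM values in 1 table of 23358 entries. Every count was even, as when both ends of a pair are counted.

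From the counts, CPM with TMM scaling, edgeR (4.0.16, R 4.3.3) quasi-likelihood tests after filterByExpr, and Benjamini-Hochberg adjustment over 16415 genes were computed, for 3 FSP1-Cre;NT3 against 3 Osx-Cre;NT3 tumors and for 2 perineal against 4 trunk tumors, without covariates. The deposited RPKM values were used to compare genes of different lengths, and for the sums and ratios given per tumor. TMM scaling, with factors from 0.932 in tumor 13 to 1.1 in tumor 27, was not applied to them. DESeq2 (1.42.0), other scalings and filters, halved counts, covariates, subsets and leaving out each tumor were alternatives. DESeq2 and the gene list counts without tumor 36 were added after seeing the data. The tests were checked on simulated counts: for the lines edgeR called 31.6% of genes changed 4-fold and 75.8% of genes changed 8-fold, with 16216 and 16204 genes run, and DESeq2 69.9% and 90.2%. Unchanged genes called were 2 and 11 for edgeR and 79 and 89 for DESeq2. For the sites, with 16201 and 16187 genes run, edgeR called 20.4% and 72.8% with 5 and 8 unchanged genes, and DESeq2 70.4% and 88.2% with 87 and 98. The changed genes were drawn at random, and tumors of a group shared a common mean with no outlying tumor. These rates therefore do not give the power for the members.

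The members and gene lists were chosen with earlier results of these data known. Of 164 listed genes, 162 were found, 2 under an older symbol. Named were the members, up to 3 genes with the highest mean RPKM of each other list, genes of those lists with an unadjusted p under 0.05 in either comparison, and 8 set markers; not all such genes of the marker lists are printed. 1 listed substrate gene is not reported here. Klk4, Krt18 and 2310002F09Rik were named after their values or positions were seen. Total counts ranged from 51824408 to 163297772. Limits from counts cover counting error only, and p-values the spread between single tumors of separate mice. Promoter sequences came from RefSeq on GRCm38.p6, for the 8 kallikreins. No columns of per-sample values were left unused.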

Additional observations from a re-analysis of the deposited data

Results flagged for a closer look

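For 15 values (the 10 members on a log2(CPM + 0.5) scale and 5 ratios on a log2 scale) the highest and lowest of the 6 tumors were set against the others by Dixon's gap criterion, which chance would exceed in about 0.75 of the 15. In 6 of them 1 tumor stood apart. The 15 values are not independent, since the kallikreins were all highest in tumor 36 and the ratios are built from members. The 6 are therefore not separate results, and the count of 6 was not tested against chance. Tumor 36 did so for Klk6, at 4.58 with the next tumor at 1.19, for Klk10 at 3.15 with the next at 1.08, and for Klk13 at 3.10 with the next at 0.09. It also did so for the summed kallikrein RPKM in percent of Spink5, at 7.25 on the log2 scale with the next tumor at 4.07, and in percent of Krt5 plus Krt14, at 2.04 with the next at -1.66. Tumor 18 stood apart for St14 on the low side, at 6.76 with the next tumor at 7.34. Tumor 18 had the largest library, with 163297772 counts.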

How the results depend on the processing

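With edgeR, no member passed the adjusted threshold in either comparison under library sizes alone, RLE size factors, no filter, at least 10 counts in every tumor (7 members tested, without Klk11, Klk13 and Klk14), halved counts or a covariate. DESeq2 called 420 genes between lines and 561 between sites, including 1 member between sites (Klk6, log2 fold change 3.56), and without tumor 36 it called 196 and 14 genes and 0 members. Leaving out each tumor in turn with edgeR, genes called were 0 between lines each time and 0 to 415 between sites (2 without tumor 25), and members called from 0 to 2 between sites, the highest without tumor 27. Between lines, the direction of Klk5 reversed with site as a covariate (-0.45) and in trunk tumors alone (-0.45), and those of Klk5, Klk7 and Klk8 without tumor 36 (-0.76, -0.37 and -0.17; with DESeq2 -0.79, -0.38 and -0.19), and that of St14 without tumor 18 (-0.14). Between sites, St14 reversed with line as a covariate (-0.023), in FSP1-Cre;NT3 tumors alone (-0.023), without tumor 18 (-0.11) and without tumor 36 (-0.027, with DESeq2 -0.061). Without tumor 36, Klk5, Klk6, Klk7 and Klk8 between sites were at -1.08, -0.037, -0.96 and -0.43, and Klk10, Klk11, Klk13 and Klk14 at -0.31, -1.35, -0.52 and -2.81. With DESeq2 these were -1.13, -0.071, -0.99, -0.46, -0.35, -1.40, -0.56 and -2.88. With site as a covariate, the line values of Klk8, Klk11 and Klk14 were 0.04, 1.68 and 1.95. That fit sets tumor 29 alone against the Osx-Cre;NT3 tumors. With line as a covariate, the site values of Klk10, Klk11, Klk13 and Klk14 were 1.48, 0.32, 2.88 and 0.0064. That fit sets tumors 27 and 36 against tumor 29 alone. The highest values without 1 tumor were, between lines, 3.26 for Klk5, 4.005 for Klk6, 3.02 for Klk7, 0.84 for Klk8, 3.07 for Klk10, 3.91 for Klk11, 4.94 for Klk13, 4.68 for Klk14 and 0.20 for St14, and between sites 3.19 for Klk5, 4.48 for Klk6, 3.58 for Klk7, 1.35 for Klk8, 3.29 for Klk10, 2.23 for Klk11, 4.70 for Klk13, 2.11 for Klk14 and 0.11 for St14. The cause was not tested. No paired analysis was possible because the groups share no replicate numbers. The groups were small, with 3 tumors per line and 2 perineal tumors. The lowest counts were 0 for Klk14, 2 for Klk11, 8 for Klk13 and 14 for Klk5. How much the number of tumors and the depth each limit the precision was not tested.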
